A study of Saccharomyces cerevisiae with 15 samples.

Results

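The 10 genes described here belong to the general stress response of the budding yeast Saccharomyces cerevisiae, the set of genes switched on by the paired transcription factors Msn2 and Msn4. They were chosen by systematic name, as HSP12 (YFL014W), CTT1 (YGR088W), DDR2 (YOL052C-A), ALD3 (YMR169C), YGP1 (YNL160W), SPI1 (YER150W), TFS1 (YLR178C), SOL4 (YGR248W), RTN2 (YDL204W) and MSC1 (YML128C), out of 7126 genes in the table, and all 10 passed the filter on low values. Both these genes and the gene lists below were chosen with earlier results of these data known. Counts of them set beside all genes are therefore a description and no independent support. Messenger RNA was sequenced in 15 libraries, 3 biological replicates in each of 5 groups, all from mid-log cultures in rich YPD medium. The series asks how contacts between Hsf1, the heat shock transcription factor, and the chaperone Hsp70 set the transcriptome. At 30 °C, cells carried the wild-type HSF1 allele, hsf1-mN (the amino-terminal Hsp70 site mutated, here mN), hsf1-mC (the carboxyl-terminal site mutated, mC) or hsf1-mNmC (both sites mutated, mNmC). In the fifth group, cells with the wild-type allele were shifted to 37 °C for 15 min before harvest. The sources used here name neither the strain background nor whether the alleles sat on a plasmid or in the chromosome.

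Msn2 and Msn4 are zinc finger activators that bind the stress response element (STRE). In well-fed cells, protein kinase A keeps them in the cytoplasm, and under heat, oxidative or osmotic stress or when glucose runs out they move into the nucleus. Hsf1 works beside them on another element, the heat shock element (HSE), and is held in check by Hsp70, which is drawn away when proteins misfold. The genes of Msn2 and Msn4 that serve here as the measure of stress code for a membrane-associated protein (HSP12), a catalase that breaks down hydrogen peroxide (CTT1), enzymes of aldehyde oxidation and of the pentose phosphate pathway (ALD3 and SOL4), a secreted and a wall-anchored glycoprotein (YGP1 and SPI1), a carboxypeptidase Y inhibitor (TFS1) and a reticulon that shapes the endoplasmic reticulum (RTN2). DDR2 and MSC1 have less settled roles.

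Each of the 10 genes carried at least 1 STRE, searched as AGGGG on the gene's strand or CCCCT for the other strand, in the 500 bases before its start codon in the R64 reference of RefSeq. Over the same window, 34.1% of 6000 protein-coding genes held a match, 8.13% held at least 2 and 1.83% held at least 3. Of the 10 genes, 7 held at least 2 and 4 held at least 3, with 5 in HSP12, 4 in DDR2 and 3 each in CTT1 and SPI1. YGP1 was the 1 gene of the 10 with an HSE, searched as GAA, TTC and GAA in a row with any 2 bases between neighbours, or the same on the other strand, which 1.48% of the 6000 genes held. No match means only that these letters were not in the window. The stretches below, in which the capitals mark STRE matches and, in YGP1, also the HSE, are shown for HSP12, with the most matches and the largest rise in heat, DDR2, with the largest change in the single mutants, CTT1, with closely spaced matches, and YGP1, with both elements. Each runs from 5 bases before its first marked match to 5 bases after its last, holds all matches of the gene except 1 each in DDR2 and CTT1, and is written 5′ to 3′ on the gene's strand. Their coordinates are those of R64, since the sources used here name no build for the deposited values.
HSP12, chrVI:106816-107075, plus strand: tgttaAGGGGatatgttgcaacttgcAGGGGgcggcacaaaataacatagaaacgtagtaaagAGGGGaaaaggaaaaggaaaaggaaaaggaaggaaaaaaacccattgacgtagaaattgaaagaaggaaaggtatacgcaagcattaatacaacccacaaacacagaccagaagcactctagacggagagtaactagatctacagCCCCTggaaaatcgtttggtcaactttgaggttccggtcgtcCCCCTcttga
DDR2, chrXV:231921-232008, minus strand: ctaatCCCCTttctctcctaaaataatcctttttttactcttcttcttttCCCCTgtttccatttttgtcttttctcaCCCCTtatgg
CTT1, chrVII:654251-654280, plus strand: tttcaAGGGGatcaccggtaAGGGGccaag
YGP1, chrXIV:336091-336120, plus strand: gaatcGAAACTTCTCGAAgaAGGGGccgaa

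**Figure D1:**
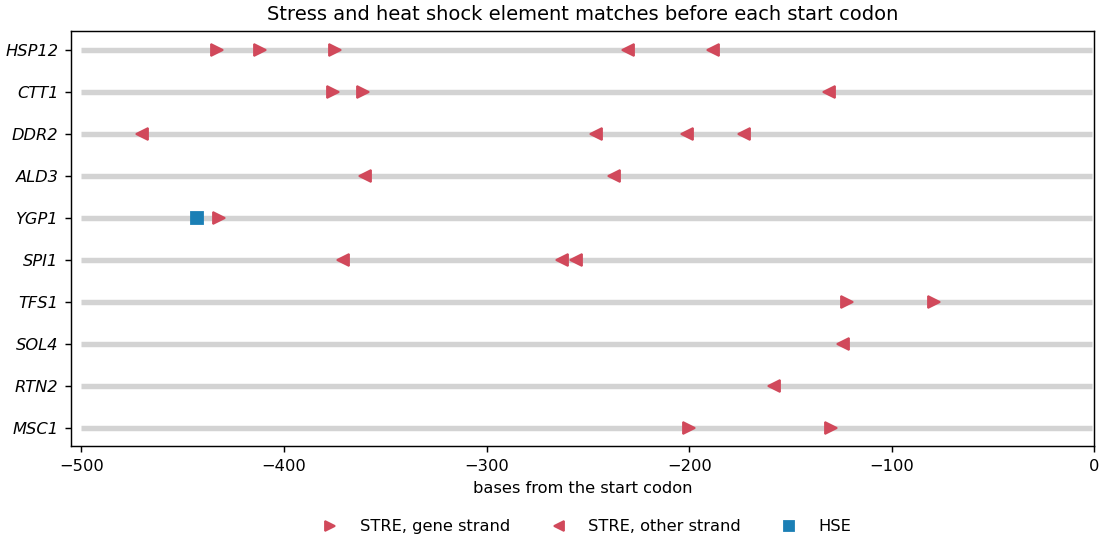
Position of STRE matches (red triangles, pointing right on the gene's strand and left on the other strand) and of the HSE match (blue square) in the 500 bases before the start codon of each gene, with the distance from the start codon in bases on the horizontal axis. HSP12 holds 5 STRE matches, YGP1, SOL4 and RTN2 hold 1 each, and the HSE match lies in YGP1 beside its STRE.

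The library labelled mNmC replicate 3 and the library labelled 37 °C replicate 3 each went against their group. Over all genes, the first of them correlated with its fellow mNmC libraries at a Spearman rho of 0.922 on average, and with heated replicates 1 and 2 at 0.996. The second correlated at 0.919 with heated replicates 1 and 2, and at 0.996 with mNmC replicates 1 and 2. The main test follows the labels, and beside it each result stands with 13 libraries, where both are left out and n = 2 in mNmC and at 37 °C. In mN, replicate 1 stood apart from replicates 2 and 3 (mean rho 0.980, against 0.997 between those replicates). HSF1 mRNA stood at 155 ± 2.97 FPKM in wild type (SD, n = 3), 101 ± 12.6 in mN (n = 3), 246 ± 15.5 in mC (n = 3) and 55.7 ± 5.15 in mNmC with 13 libraries (n = 2), and the mutations, which lie within the gene, are not checked by it. The labels name no mating type, and summed mRNA of 4 markers of α cells was 6678 to 9822 FPKM in the libraries at 30 °C other than mNmC replicate 3 and 1019.7 to 1114 at 37 °C in replicates 1 and 2. Summed mRNA of 5 markers of a cells moved the other way, from 50.7 to 54.3 FPKM in wild type at 30 °C to 222 and 229 in those heated libraries, and the part of these shifts in the results was not tested. Libraries held 15462618 to 25409519 reads, recovered from the deposited FPKM (fragments scaled to gene length and library size). Each of the 10 genes had at least 308 reads in every library. In wild type the counting error alone, as a coefficient of variation, was 0.631% (YGP1) to 5.21% (HSP12). It exceeded the spread between replicates for DDR2 (2.90% against 0.795%) and TFS1 (2.60% against 1.06%), and was about as large for ALD3 (5.15% against 5.22%).

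In wild type at 30 °C the 10 genes spanned a wide range of levels. YGP1 was the most abundant, at 1132, 1167 and 1045 FPKM in the 3 libraries. SPI1 followed at 366, 384 and 351 FPKM, and DDR2 at 304, 303 and 299 FPKM. TFS1 stood at 107, 106 and 105 FPKM, and HSP12 at 58.3, 55.2 and 45.2 FPKM. The remaining 5 were lower, MSC1 at 33.0 to 36.6 FPKM, SOL4 at 26.8 to 29.5, RTN2 at 14.7 to 17.8, CTT1 at 14.8 to 17.0 and ALD3 at 11.0 to 12.2. In this order the libraries of neighbouring genes did not overlap, except those of RTN2 and CTT1. Together the 10 genes took 0.155 to 0.170% of the reads of a wild-type library.

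All 10 genes were higher after heat, and their order changed. With 13 libraries all 10 rose at 37 °C against 30 °C, beside 47% of all 6399 genes tested, and their log2 changes ran from 2.30 to 8.25 with a median of 4.88, against a median of 0.29 over all genes. As labelled, 8 of 10 rose, beside 32.1% of all genes, and SPI1 (2.68 ± 1.08, adjusted p = 0.0661) and SOL4 (3.23 ± 1.21, adjusted p = 0.0519) did not pass. Changes are log2(FPKM + 1) differences ± SE from limma, with p adjusted by Benjamini-Hochberg over all genes tested. In bulk cultures, a change in the share of cells that express a gene and a change in its level per cell cannot be told apart.

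HSP12 changed most. Its mRNA stood at 16693 and 15889 FPKM in replicates 1 and 2 at 37 °C, and at 402 FPKM in the library labelled replicate 3. Replicates 1 and 2 lay 308 times above the wild-type mean at 30 °C, and with 13 libraries HSP12 rose by 8.25 ± 0.38 (adjusted p = 9.17e-09; 6.47 ± 1.38 as labelled, adjusted p = 0.00468). From the middle of the order at 30 °C it became the most abundant of the 10. DDR2, a small protein first known from cells with damaged DNA, stood at 12188 and 13357 FPKM in replicates 1 and 2 and at 929 FPKM in the library labelled replicate 3, a rise of 5.40 ± 0.07 with 13 libraries (4.14 ± 0.96 as labelled). For both genes, as for all others of the 10 except SPI1, the libraries at 37 °C lay above wild type at 30 °C even with the library labelled replicate 3 counted in.

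Among the enzymes, CTT1 stood at 1003 and 1009.8 FPKM in replicates 1 and 2 at 37 °C and at 20.4 FPKM in the library labelled replicate 3. ALD3 showed the same pattern, at 959 and 1059 FPKM and at 18.5 FPKM. The lone low value in each was far from the other two. With 13 libraries ALD3 rose by 6.31 ± 0.10 and CTT1 by 5.92 ± 0.14, or 85.9 and 64.5 times the wild-type mean. SOL4, a 6-phosphogluconolactonase, stood at 788 and 820 FPKM and at 31.6 FPKM in the library labelled replicate 3, and rose by 4.77 ± 0.11 with 13 libraries. ALD3 shares 91.8% of its coding bases with its neighbour paralog ALD2, and the sources used here do not say how reads common to both were assigned, so the level of ALD3 is uncertain to that extent. ALD2 itself stood at 28.3 ± 1.52 FPKM in wild type (n = 3) and at 61.7 ± 5.59 at 37 °C (n = 2). No annotated gene of the R64 reference overlapped any of the 10.

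The wall proteins differed in their response. SPI1, an anchored wall protein, stood at 5843 and 6136 FPKM in replicates 1 and 2 at 37 °C, 16.3 times wild type, and at 361 FPKM in the library labelled replicate 3, which lay within the range of wild type at 30 °C. YGP1, the secreted glycoprotein that led the order at 30 °C, stood at 5339 and 5617 FPKM, 4.91 times wild type, and at 2058 FPKM in the library labelled replicate 3. Its rise of 2.30 ± 0.09 with 13 libraries was the smallest of the 10. The last 3 genes rose by 4.98 ± 0.20 (RTN2), 4.09 ± 0.19 (TFS1) and 3.89 ± 0.12 (MSC1) with 13 libraries. By the mean of replicates 1 and 2 the order at 37 °C ran from HSP12 over DDR2, SPI1, YGP1, TFS1, ALD3, CTT1, SOL4 and RTN2 to MSC1, and the neighbours ALD3 and CTT1, and RTN2 and MSC1, overlapped. As labelled, YGP1 (4338.2 FPKM on average) lay above SPI1 (4113.3 FPKM). The 10 genes then took 2.24 and 2.32% of the reads, beside 0.298% in the library labelled replicate 3 and 2.17% in the library labelled mNmC replicate 3.

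**Figure D2:**
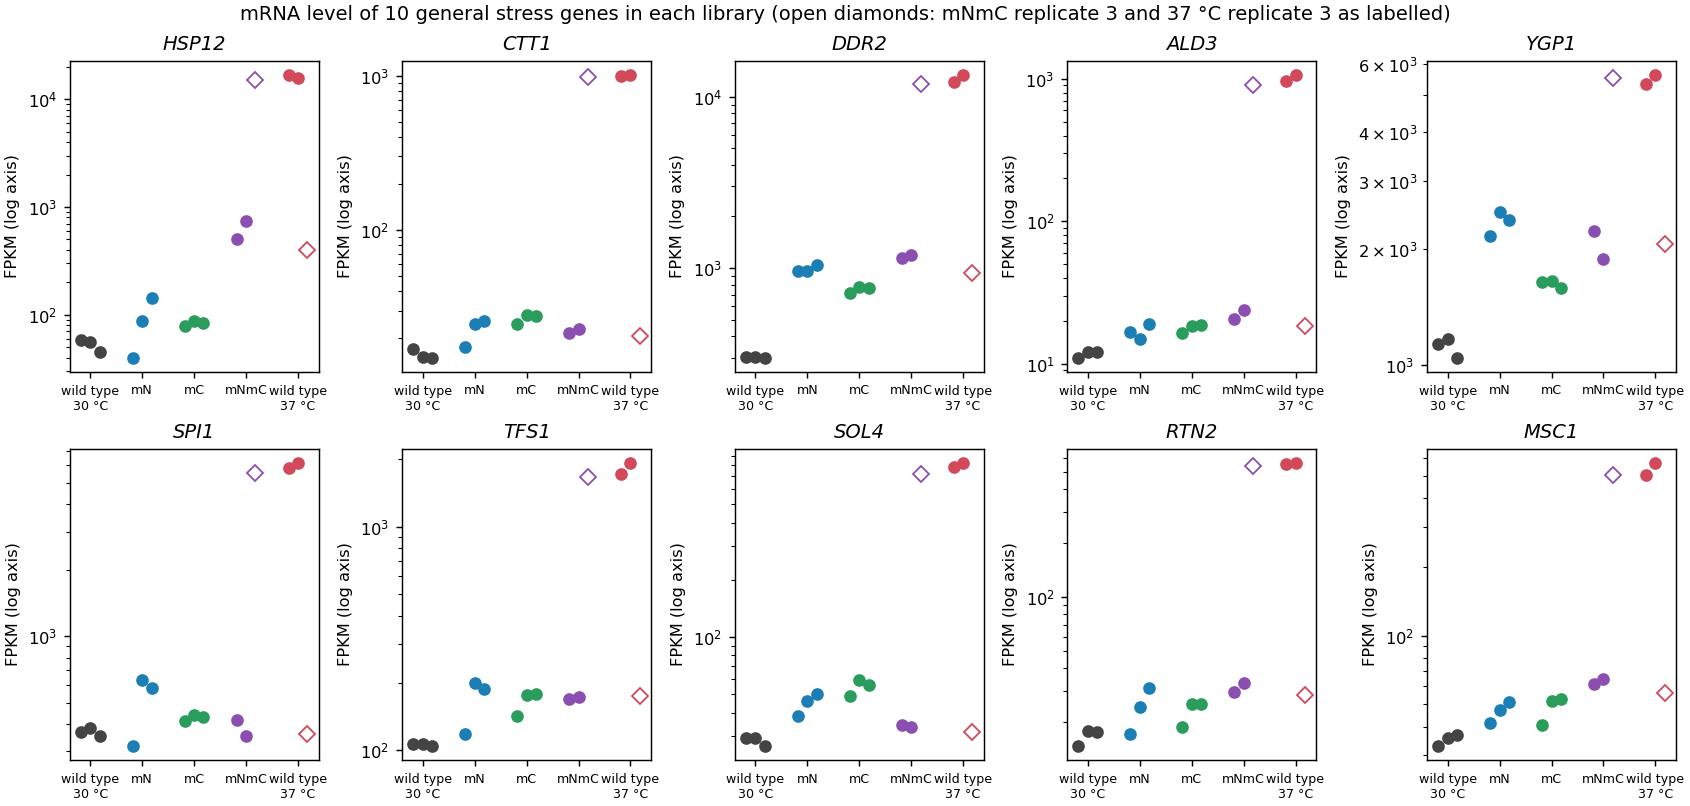
mRNA level in FPKM (log axis, a different range in each panel) of the 10 genes in each of the 15 libraries, grouped as labelled. Open diamonds are the library labelled mNmC replicate 3, which lies with the heated cultures in every panel, and the library labelled 37 °C replicate 3, which lies with the mNmC libraries at 30 °C.

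The double mutant mNmC was compared with wild type without heat. With 13 libraries 8 of 10 rose against wild type, beside 40.6% of all genes tested, with a median log2 change of 0.84 against 0.25 over all genes, and SPI1 (0.06 ± 0.22, adjusted p = 0.846) and SOL4 (0.25 ± 0.11, adjusted p = 0.0867) did not pass. As labelled, 3 of 10 rose, beside 24.5% of all genes, namely HSP12 (5.06 ± 1.38), DDR2 (3.06 ± 0.96) and YGP1 (1.35 ± 0.40), and the size of these changes rests on the library labelled replicate 3. Scaling the libraries to the same upper quartile, which brought the median of all genes from 0.25 to 0.03, left 8 of 10 higher with 13 libraries, beside 20.3% of all genes.

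HSP12 stood apart from the rest here as well. It read 509 and 740.1 FPKM in mNmC replicates 1 and 2 and 15099.9 FPKM in the library labelled replicate 3. The lower pair lay 11.8 times above wild type, a rise of 3.52 ± 0.38 with 13 libraries (adjusted p = 3.94e-05), yet at 3.83% of the level at 37 °C. DDR2 stood at 1138 and 1189 FPKM in replicates 1 and 2, 3.85 times wild type (1.94 ± 0.07), and at 11946.5 FPKM in the library labelled replicate 3. YGP1 stood at 2216 and 1878 FPKM, 1.84 times wild type (0.87 ± 0.09), and at 5535 FPKM in the library labelled replicate 3. The other 5 that rose did so by 0.47 to 0.87, from CTT1 (21.4 and 22.7 FPKM in replicates 1 and 2, 1.41 times wild type) to RTN2 (29.5 and 32.9 FPKM, 1.87 times wild type). None of the 5 reached 2-fold, and in each of them replicates 1 and 2 lay above all 3 wild-type libraries. SPI1, at 415 and 351 FPKM, overlapped wild type, while SOL4, at 34.6 and 33.5 FPKM, lay just above it.

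Set against the heated cultures, mNmC was lower in all 10 genes with 13 libraries, beside 28.8% of all genes called lower, with log2 differences from -5.45 for CTT1 and ALD3 to -1.42 for YGP1 and a median of -4.04. As labelled none of the 10 passed in this comparison by limma, and none had an unadjusted p under 0.05, but among all genes 0% passed in either direction as well. At that unadjusted level it was 65 of all 6399 genes. YGP1, with the smallest response to heat, reached 37.5% of its level at 37 °C, and the other 9 genes reached 2.19 to 11.7%.

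Part of the set was higher in each single mutant. With 13 libraries 7 of 10 rose in mN, beside 12.8% of all genes tested, and 7 of 10 in mC, beside 12.3%, with median log2 changes of 0.54 in mN and 0.60 in mC (0.03 and 0.09 over all genes). As labelled none of the 10 passed in either mutant, beside 0.422% of all genes in mN and 0.172% in mC. At an unadjusted p under 0.05 by limma it was 1 gene in mN and 0 in mC, beside 745 and 680 of all 6399 genes. The fold changes are the same in both fits, since these groups hold the same libraries, and only the spread pooled over all groups differs. Both comparisons share the wild-type libraries.

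DDR2 responded most to either mutation. It stood at 965, 962 and 1035 FPKM in mN and at 718, 770 and 767 FPKM in mC, above all wild-type libraries and without overlap between the mutants. The change was 1.70 ± 0.06 in mN (adjusted p = 6.22e-08 with 13 libraries) and 1.31 ± 0.06 in mC (adjusted p = 1.15e-06). YGP1 came next in mN, at 2160.25, 2495 and 2366 FPKM (1.07 ± 0.08), and stood at 1642, 1650.05 and 1586 FPKM in mC (0.55 ± 0.08). For DDR2 and YGP1 every mutant library lay above every wild-type library.

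The remaining genes shifted by less than 1 on the log2 scale. SOL4 stood at 38.3, 46.1 and 50.1 FPKM in mN (0.62 ± 0.10) and at 49.0, 59.3 and 55.7 FPKM in mC (0.91 ± 0.10), and CTT1 at 17.5, 24.4 and 25.8 FPKM in mN (0.49 ± 0.12) and at 24.7, 27.9 and 27.7 FPKM in mC (0.74 ± 0.12). All of these libraries lay above wild type. ALD3, TFS1 and MSC1 also rose in both mutants, by 0.39 to 0.63 in mN and by 0.44 to 0.64 in mC. HSP12 stood at 39.9, 86.7 and 144 FPKM in mN, so that its lowest library lay below wild type, and at 78.4, 87.1 and 83.6 FPKM in mC, above all wild-type libraries. Neither change passed with 13 libraries (0.58 ± 0.34, adjusted p = 0.272 in mN and 0.65 ± 0.34, adjusted p = 0.232 in mC). SPI1 and RTN2 did not pass in either mutant.

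These counts turn on the mN library that stood apart. In mN replicate 1, 8 of the 10 genes were below both other replicates, DDR2 and ALD3 lay between them, and SPI1 read 318 FPKM there against 632 and 580 in the others. With 12 libraries, leaving out mN replicate 1 as well, all 10 genes passed in mN, beside 22.6% of all genes, with HSP12 at 1.07 ± 0.20 and SPI1 at 0.72 ± 0.07. All 10 also passed in mC, beside 26.5%, where the fold changes were the same and the pooled spread was smaller. This setting was added after the values had been seen.

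**Figure D3:**
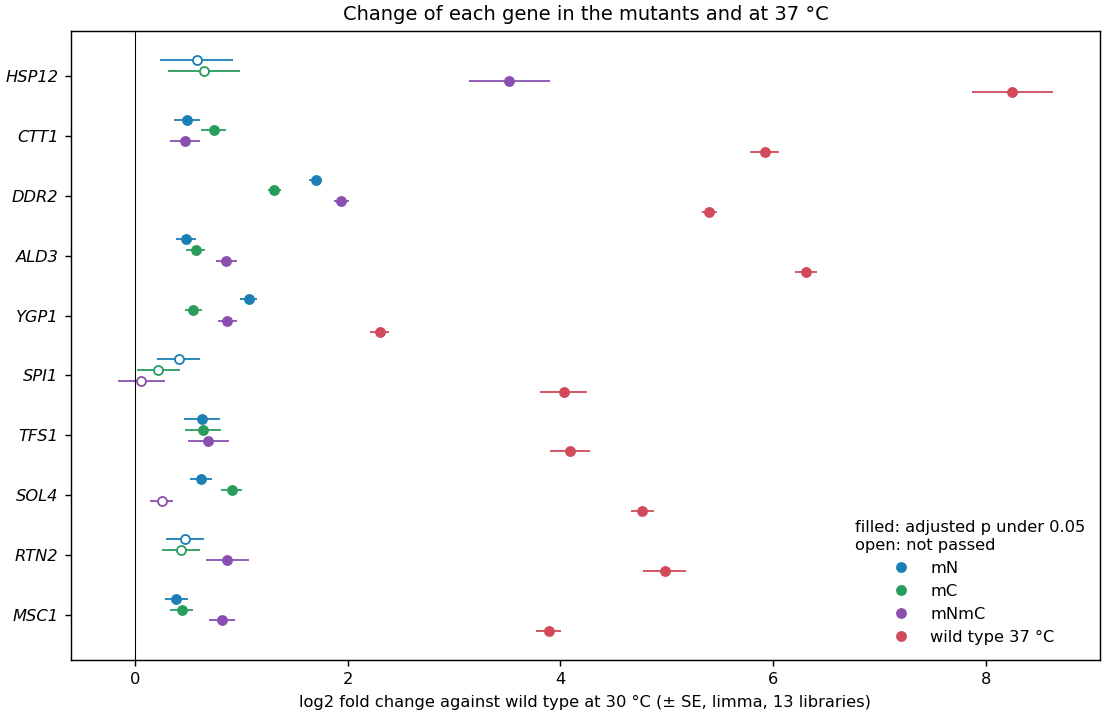
Change of each of the 10 genes against wild type at 30 °C on the log2(FPKM + 1) scale with 13 libraries, with SE, in mN, mC, mNmC and at 37 °C. All 10 points at 37 °C lie between 2.30 and 8.25, while in the mutants HSP12 in mNmC (3.52) and DDR2 (1.31 to 1.94) lie highest.

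The design also asks whether the double mutant differs from each single mutant. With 13 libraries 4 of 10 genes were higher in mNmC than in mN, beside 39.6% of all genes, and 1 was lower, beside 10.6%. The higher genes were HSP12 (2.94 ± 0.38), MSC1 (0.43 ± 0.12), ALD3 (0.37 ± 0.10) and DDR2 (0.24 ± 0.07), and the lower was SOL4 (-0.38 ± 0.11). With upper-quartile scaling, which moved the median of all genes in this comparison from 0.24 to 0.01, only HSP12 of the 10 was higher, SOL4, SPI1, YGP1 and CTT1 were lower and DDR2 stood at -0.01 ± 0.09, beside 21% of all genes higher and 22.1% lower. As labelled HSP12 alone was higher (4.47 ± 1.38, adjusted p = 0.0358), beside 20.1% of all genes. Against mC, 5 of 10 were higher with 13 libraries, beside 27.6% of all genes, and SOL4 was lower (-0.66 ± 0.11), beside 9.52%. With upper-quartile scaling 2 were higher, HSP12 and DDR2, and 2 were lower, SOL4 and CTT1, beside 17.9% of all genes higher and 17.7% lower. As labelled none passed against mC by limma, beside 12.4% of all genes higher. An unadjusted p under 0.05 was found for 1 gene of the 10, beside 1881 of all 6399 genes.

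The interaction compares the change in mNmC with the sum of the changes in mN and mC on the log2 scale. With 13 libraries it was above 0 for 1 of 10 genes, beside 22.1% of all genes called higher, and below 0 for 4, beside 12.8% called lower. HSP12 rose in mNmC by 2.29 ± 0.51 more than the sum of the singles (adjusted p = 0.00632). SOL4 (-1.29 ± 0.15, adjusted p = 1.22e-04), DDR2 (-1.08 ± 0.10, adjusted p = 2.45e-05), CTT1 (-0.75 ± 0.18, adjusted p = 0.00910) and YGP1 (-0.74 ± 0.12, adjusted p = 0.00133) lay below that sum. For SOL4 the level in mNmC replicates 1 and 2 was below every library of either single mutant. As labelled none of the 10 passed by limma, beside 3.5% of all genes called higher and 1.19% lower. None of them had an unadjusted p under 0.05, beside 1346 of all 6399 genes. Between 15 and 13 libraries the interaction changed sign for 8 of the 10 genes, all but HSP12 and YGP1.

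**Figure D4:**
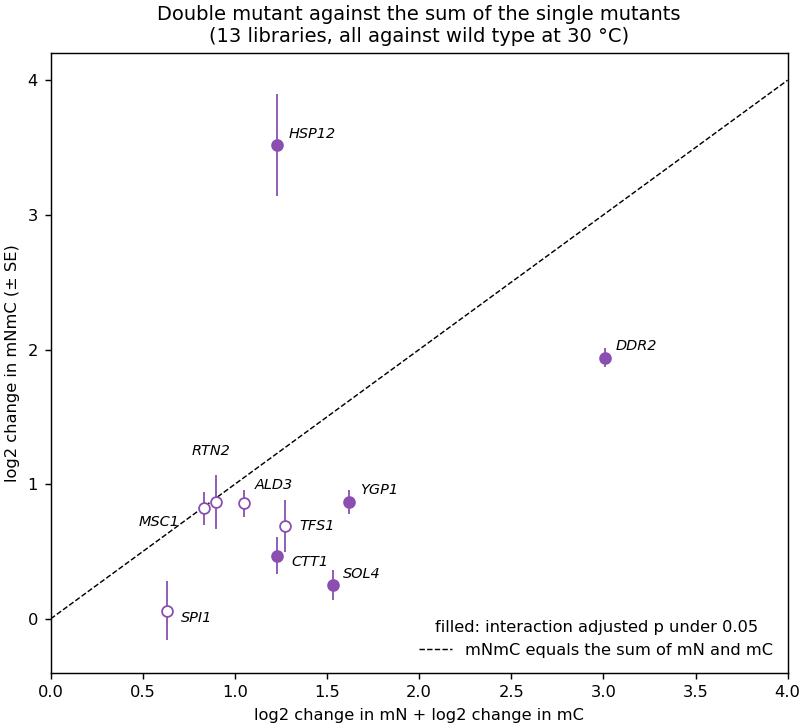
Change in mNmC (vertical axis) against the sum of the changes in mN and mC (horizontal axis), both as log2(FPKM + 1) differences from wild type with 13 libraries, 1 point a gene. HSP12 lies above the dashed line of equality with an interaction of 2.29, and SOL4, DDR2, CTT1 and YGP1 lie below it.

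Other genes of the pathway give the setting for these values, in lists chosen with earlier results of these data known. Of 28 further targets of Msn2 and Msn4, all 28 rose at 37 °C with 13 libraries, beside 47% of all genes. Their median log2 change was 2.53, and CYC7, a cytochrome c isoform, rose most (5.40 ± 0.29). In mN and in mC 12 of the 28 rose, beside 12.8% and 12.3% of all genes. In mNmC 17 rose and 1 fell with a median of 0.45, beside 40.6% of all genes higher and 7.39% lower. With upper-quartile scaling 12 rose and 3 fell, beside 20.3% and 16.9%. As labelled 19 rose at 37 °C, 1 in mN, 0 in mC, where 1 had an unadjusted p under 0.05 (680 of all 6399 genes), and 9 in mNmC. The shares of all genes were 32.1%, 0.422%, 0.172% and 24.5% in this order. CYC7 again led in mNmC with 13 libraries (2.43 ± 0.29), followed by TMA10 (1.52 ± 0.34), NQM1 (1.47 ± 0.10) and MOH1 (1.45 ± 0.11). The gene that fell in mNmC with 13 libraries was HXK1, a hexokinase (-0.66 ± 0.15), named here after its value was seen. As labelled the lowest change in mNmC among the 28 was 0.23.

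With 13 libraries, genes under Hsf1 showed another balance between mutation and heat. Of 18 Hsf1 targets, 15 rose at 37 °C and 16 in mNmC with 13 libraries, beside 47% and 40.6% of all genes. Their medians were 0.77 and 1.14. In mN 4 rose (HSP82, BTN2, KAR2 and FES1) and in mC 14, beside 12.8% and 12.3% of all genes. As labelled 13 rose at 37 °C, 13 in mNmC, 1 in mN and 2 in mC, beside 32.1%, 24.5%, 0.422% and 0.172% of all genes. The medians as labelled lay close together, at 0.91 at 37 °C and 0.96 in mNmC. With upper-quartile scaling of the 13 libraries 11 rose and 1 fell at 37 °C, beside 34.3% and 30% of all genes. In mNmC 14 then rose, beside 20.3%. BTN2, a sorting factor for misfolded proteins, rose with 13 libraries by 3.23 ± 0.11 in mNmC and by 1.71 ± 0.11 at 37 °C. The chaperone HSP82 rose by 2.56 ± 0.13 and 2.32 ± 0.13. Compared directly, 8 of the 18 were higher and 2, KAR2 and CPR6, lower in mNmC than at 37 °C with 13 libraries, beside 28% of all genes higher and 28.8% lower, and in the same comparison all 10 Msn2 and Msn4 genes were lower. As labelled none of the 18 passed by limma in this comparison, and none had an unadjusted p under 0.05. Among all 6399 genes 0 passed, and 65 had an unadjusted p under 0.05. All 6 heat genes shared by both pathways rose in every mutant and at 37 °C with 13 libraries. The shares of all genes are those given for the 18 Hsf1 targets with 13 libraries. After upper-quartile scaling 5 of 6 passed in mNmC, beside 20.3% of all genes. As labelled 6 passed at 37 °C, 5 in mNmC, 1 in mN and 1 in mC, beside the same 32.1%, 24.5%, 0.422% and 0.172% of all genes. SSA4, an inducible Hsp70, reached 1105 and 1063 FPKM in mNmC replicates 1 and 2 and 2019.9 and 1718 FPKM in replicates 1 and 2 at 37 °C. The small heat shock protein HSP26 rose with 13 libraries by 5.69 ± 0.18 at 37 °C and by 0.49 ± 0.18 in mNmC. Its level in mNmC replicates 1 and 2 (252 and 225 FPKM) was below every library of mN (290 to 453 FPKM) and mC (359 to 498 FPKM).

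**Figure D5:**
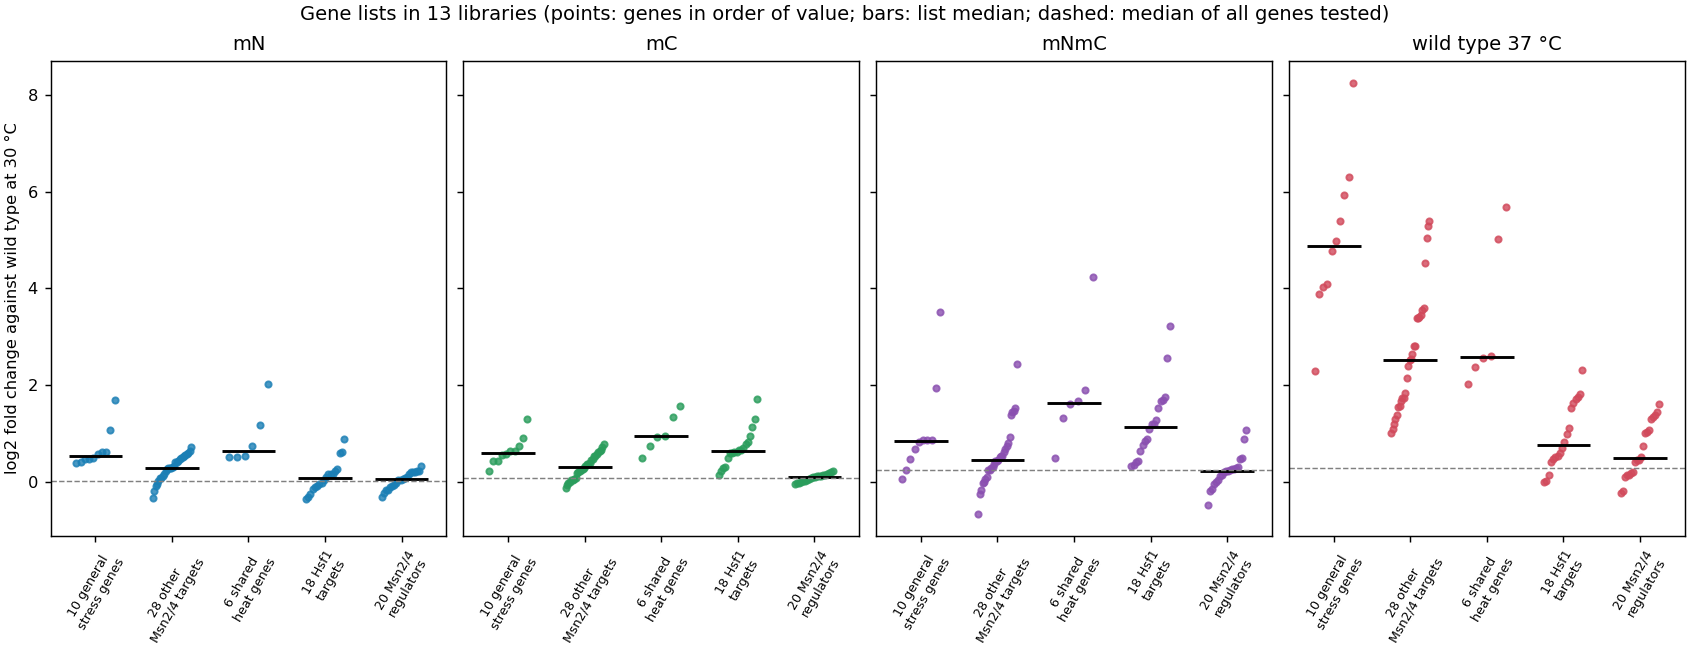
Changes of the listed genes on the log2(FPKM + 1) scale with 13 libraries, by list and comparison. The 10 genes have a median of 4.88 at 37 °C and 0.84 in mNmC, and the 18 Hsf1 targets have 0.77 and 1.14.

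Messenger RNA of the activators moved little. MSN2 stood at 36.3 ± 1.58 FPKM in wild type (SD, n = 3) and at 50.4 ± 2.79 at 37 °C (n = 2), a rise of 0.46 ± 0.11, and did not pass in any mutant (-0.10 to 0.01). MSN4 stood at 25.3 ± 1.17 FPKM in wild type and rose by 0.46 ± 0.09 at 37 °C, by 0.33 ± 0.08 in mN and by 0.50 ± 0.09 in mNmC. It did not pass in mC (0.08 ± 0.08). These changes are with 13 libraries, where the median over all genes was 0.29 at 37 °C, 0.03 in mN and 0.25 in mNmC. As labelled (n = 3), MSN2 averaged 45.9 ± 8.08 FPKM at 37 °C and 40.7 ± 7.38 in mNmC. The values of MSN4 were 35.8 ± 1.86 and 35.7 ± 1.58. Of 20 genes of the machinery that controls Msn2 and Msn4, 15 rose and 1 fell at 37 °C with 13 libraries, beside 47% of all genes higher and 18.9% lower. In mNmC 10 rose and 1 fell, near the 40.6% and 7.39% of all genes, and with upper-quartile scaling 4 rose and 4 fell, near 20.3% and 16.9%. As labelled 8 rose at 37 °C, beside 32.1% of all genes, and 5 in mNmC, near the 24.5% of all genes. PDE1 and PDE2, phosphodiesterases that break down cyclic AMP, rose by 1.08 ± 0.13 and 0.89 ± 0.08 in mNmC with 13 libraries. The genes that fell with 13 libraries were WHI2 at 37 °C (-0.22 ± 0.06) and RIM15, a kinase, in mNmC (-0.47 ± 0.09), named after their values were seen. In mN with 13 libraries 3 of the 20 rose, MSN4, BCY1 and MSN5, near the 12.8% of all genes. In mC none passed by limma, beside 12.3% of all genes higher, with 5 at an unadjusted p under 0.05, beside 1903 of all 6399 genes. As labelled none passed in mN or mC, beside 0.422% and 0.172% of all genes higher. Of 9 glucose-repressed genes, 8 rose at 37 °C and 7 in mNmC with 13 libraries, beside 47% and 40.6% of all genes. As labelled 6 rose in each, beside 32.1% and 24.5%. With 13 libraries and upper-quartile scaling 8 rose and 1 fell at 37 °C, beside 34.3% and 30% of all genes. In mNmC 4 of the 9 then rose and 1 fell, beside 20.3% and 16.9%. Their part in the changes of the 10 genes was not tested.

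As a description over the 15 libraries, each of the 10 genes followed the mean of the other 9 with a Pearson r from 0.931 (YGP1) to 0.998 (MSC1), on log2 values. Over the 11 libraries at 30 °C other than the library labelled mNmC replicate 3, r ran from 0.422 (SPI1) and 0.488 (SOL4) to 0.941 (MSC1). Among 5408 other genes, 32 reached an r of at least 0.99 with the mean of the 10 over 15 libraries, led by GND2 (0.998), PHM7 (0.997), YOL153C (0.997), GIP2, FMP45, HOR7, NDI1 and HXT5 (0.996 each). All these values share the same libraries, 3 of which hold the high levels.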

How the data were processed

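The deposited values are FPKM per gene and library, computed by the authors. Per the submitters' processing notes the tools were Bowtie2 2.2.3, TopHat2 2.0.12 and HTSeq 0.6.1, and the sources used here name no genome build, annotation or filter. RNA was extracted with hot phenol and selected on oligo(dT), per the labels' protocols. Steps between values showed that 99.87 to 99.89% of them were whole reads within 0.01 read over 5684 single-exon genes, which gave library totals of 15462618 to 25409519 reads. FPKM is not a count, so log2(FPKM + 1) was fitted with limma 3.58.1 in R 4.3.3 over all 5 groups, with genes of at least 1 FPKM in at least 3 libraries (6399 of 7126) and Benjamini-Hochberg adjustment, called at 0.05. Replicates are biological per the labels. The members and gene lists were chosen with earlier results of these data known. Named were the 10 genes, HSF1, MSN2, MSN4, up to 4 genes of a list with the largest change in the comparison described and the 8 genes most like the 10 by Pearson r with a mean of at least 10 FPKM. ALD2, HSP26 in mNmC and HXK1 were named after their values were seen. Alternatives were other scaling, pseudocount, filters, no trend, a replicate block, the compared groups alone, each replicate left out, and 13 libraries. Scripts were tested on simulated data. Python 3.11.15 was used for the rest, and promoter windows came from the RefSeq R64 reference by systematic name. No 2 libraries agreed within sampling noise.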

Additional observations from a re-analysis of the deposited data

Results flagged for a closer look

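For 5 of the 10 genes the effect of mutating 1 Hsp70 site differed with the state of the other site, by limma's interaction test with 13 libraries, on the log2 scale. Among all genes 22.1% were called higher and 12.8% lower in this test. HSP12 had an interaction of 2.29, above the sum of the single mutants. CTT1 (-0.75), DDR2 (-1.08), YGP1 (-0.74) and SOL4 (-1.29) lay below that sum. As labelled, with 15 libraries, none of the 5 passed.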

How the results depend on the processing

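The libraries labelled mNmC replicate 3 and 37 °C replicate 3 moved more results than any other choice tried, and without them those groups hold 2 libraries each. For the 66 of 80 gene values (10 genes, 8 comparisons) followed through the alternatives, 1782 values were recomputed, of which 1447 kept direction and side of the threshold, 231 newly passed, 69 no longer passed and 35 changed sign. The fewest reads of the 10 genes in any library were 308, for ALD3. Its counting error in wild type (5.15%) was near its spread between replicates (5.22%). In wild type the counting error exceeded the spread between replicates for 2 of the 10, DDR2 and TFS1. These were not among the least abundant, and their replicates spread little (0.795% and 1.06%). The cause of the changes below was not tested.

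Shares of all genes moved with these settings too. Higher in mN they were 0.422% as labelled, 12.8% with 13 libraries and 22.6% without mN replicate 1 too. In mC they were 0.172%, 12.3% and 26.5%. Where no share is given here or above, a change in count cannot be read as particular to the 10. At 37 °C 8 genes were called as labelled, 3 with the compared groups alone and 3 to 10 with 1 replicate left out. In mN the count of 0 as labelled became 7 with 13 libraries (also with pseudocount 0.1), 8 with upper-quartile scaling there, 4 with the compared groups alone and 10 without mN replicate 1 too. In mC it became 7 with 13 libraries (also with upper-quartile scaling or pseudocount 0.1), 10 with the groups alone and 10 without mN replicate 1. In mNmC the count of 3 became 8 with 13 libraries (also with either change), 9 without mN replicate 1, 1 with upper-quartile scaling of 15 libraries or the groups alone, and 0 to 4 with 1 replicate left out. For mNmC against mN the count of 1 became 5 with 13 libraries (also with either change), 7 without mN replicate 1, 0 with upper-quartile scaling of 15 libraries or the groups alone, and 0 to 1 with 1 replicate left out. For mNmC against mC 0 became 6 (4 with upper-quartile scaling, 6 with pseudocount 0.1, 8 without mN replicate 1, 0 to 1 with 1 replicate left out), against 37 °C 0 became 10 in each, and for the interaction 0 became 5 (7 with upper-quartile scaling, 5 with pseudocount 0.1, 7 without mN replicate 1).

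Replicate numbers paired the samples weakly if at all. Deviations of same-numbered libraries correlated at -0.05 to 0.15 with 13 libraries, and at -0.95 to 0.15 as labelled. For libraries of different number the ranges were -0.18 to 0.07 and -0.81 to 0.90. With the replicate block, as labelled, 5 genes were called at 37 °C, 1 in mNmC and 0 in mNmC against mN. With 13 libraries and the block the counts were 8 in mN, 8 in mC, 8 in mNmC, 6 against mN, 7 against mC, 10 against 37 °C and 5 for the interaction, and SOL4 stood at -0.36 against mN, -0.65 against mC and -1.27 in the interaction, CTT1 at -0.72 and DDR2 at -1.06.

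Signs changed for SOL4 in mNmC against mN (1.07 as labelled; -0.38 with 13 libraries, -0.61 with upper-quartile scaling, -0.39 with pseudocount 0.1, -0.48 without mN replicate 1, -0.38 to 1.81 with 1 replicate left out) and against mC (0.79; -0.66, -0.81, -0.68, -0.66, and -0.66 to 1.53). In the same order the interaction of CTT1 was 1.05, then -0.75, -0.91, -0.79, -0.92 and -0.75 to 1.97, that of DDR2 0.04, then -1.08, -1.24, -1.08, -1.09 and -1.08 to 0.62, and that of SOL4 0.17, then -1.29, -1.45, -1.32, -1.39 and -1.29 to 0.90. With upper-quartile scaling of 15 libraries DDR2 stood at -0.13 and SOL4 at -0.00. The interaction of YGP1 ran from -0.74 to 0.04 with 1 replicate left out. Between 15 and 13 libraries the sign also changed for genes that passed in neither, namely CTT1, YGP1 and SPI1 against mN, CTT1 and SPI1 against mC, and ALD3, SPI1, TFS1, RTN2 and MSC1 in the interaction. With 13 libraries and upper-quartile scaling SPI1 stood at -0.17 in mNmC and DDR2 at -0.01 against mN.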
